A study of Gossypium hirsutum with 120 samples.

Results

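Enzymes that make, convert or use reactive oxygen species were followed in the nectaries of Upland cotton (Gossypium hirsutum, accession TM-1). The set was chosen by description. A table entry was taken when its protein description held the word peroxidase directly followed by a number, the words respiratory burst oxidase or the words superoxide dismutase, and glutathione peroxidases were left out. The rule found 109 protein entries, counted as 107 of the 46672 cotton genes in the table. An entry that could not be paired with a gene counts as a gene of its own. They are 59 class III peroxidases, 15 ascorbate peroxidases, 18 superoxide dismutases, 11 respiratory burst oxidases and 2 copper chaperones for superoxide dismutase. The other 2 genes encode OVEREXPRESSOR OF CATIONIC PEROXIDASE 3 (OCP3), a homeodomain-type protein that is not a peroxidase and that the wording of its description brought in.

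Respiratory burst oxidases are plasma membrane NADPH oxidases that make superoxide on the outer face of the cell. Superoxide dismutases turn superoxide into hydrogen peroxide, with manganese enzymes in mitochondria, iron enzymes in plastids and copper-zinc enzymes in the cytosol, plastids and peroxisomes. Ascorbate peroxidases remove hydrogen peroxide inside the cell with ascorbate. Class III peroxidases are mostly secreted and use hydrogen peroxide to oxidize phenolics in the wall, including the monomers of lignin. In the nectar of ornamental tobacco a germin-like superoxide dismutase and other secreted proteins build up hydrogen peroxide, so these families are known from the biology of nectaries.

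RNA-seq was done on hand-cut nectaries and on the non-nectary tissue next to them, from plants grown in a chamber. Each RNA sample was a pool of several nectaries or pieces of tissue, so it holds the papillae (the multicellular glandular trichomes that secrete nectar) together with the cells cut along with them. The 4 nectary types are floral (inner base of the calyx), bracteal (base of each bract), circumbracteal (outer calyx, between the bracts) and foliar (underside of the leaf midvein). For the floral nectary the pre-secretory stage was the day before anthesis, the secretory stage was anthesis and the post-secretory stage was the day after it. For bracteal and circumbracteal nectaries the pre-secretory stage was a small flower bud and the post-secretory stage a boll weeks past anthesis, and foliar stages went by leaf growth and the presence of nectar. The nectary and adjacent groups held 2 and 3 samples in the pre-secretory floral stage and 3 and 3 in the secretory and post-secretory floral stages. Bracteal and foliar groups had 2 and 2 samples before secretion and 3 and 3 after it, and circumbracteal groups had 3 and 3 at both stages. The secretory foliar stage had 1 nectary and 1 adjacent sample, which give values and no test. All plants were untreated TM-1, with no mutant or treated group, and the secretory bracteal and circumbracteal samples were not analysed here.

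Each of the 51 RNA samples had 2 sequencing runs, which were summed, and the total deposited signal per sample was 7489375 to 16203450 (median 10187922). Values below are the deposited signal, read here as scaled by length, divided by each sample's upper quartile and called the value. Comparisons of level between genes rest on that reading. All 107 members passed the filter on low values, 38 were above 0 in every sample and 32 averaged under 10. Tests were run with limma over all 46113 genes tested, and a gene is said to have changed, or been called, at a Benjamini-Hochberg adjusted p under 0.05 and at least 1.5-fold. Differences are on the log2(value + 1) scale with their standard error (SE), which understates changes of low genes, and the p-values measure the spread between these pools. In bulk tissue fewer cells of a type and less RNA per cell cannot be told apart.

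The labels were checked against 14 nectary genes (SWEET sugar exporters, cell wall invertases and CRABS CLAW). Their summed values were 30998 to 85973 in the pre-secretory floral nectary and 126 to 460 in its adjacent tissue. In the bracteal pre-secretory stage they were 2994 and 4090 in the nectary, while adjacent replicate 3 held 3621 and adjacent replicate 2 held 158, so that adjacent sample carried nectary transcripts. At floral secretion they were 23652 to 40940 in the nectary and 3172 to 5958 in adjacent tissue. After secretion they overlapped between nectary and adjacent tissue in floral samples (2601 to 8753 and 1460 to 3995). They also overlapped then in circumbracteal samples (702 to 2592 and 1203 to 3917) and in foliar samples (383 to 1766 and 319 to 1120). Circumbracteal sums overlapped before secretion as well (815 to 4083 and 310 to 861). The cell wall invertase XP_016738296.1 alone did not overlap in these post-secretory pairs. It had 666 to 1604 against 6.26 to 92.0 in floral and 414 to 1360 against 5.99 to 48.2 in circumbracteal samples. In foliar samples it had 58.0 to 193 against 4.87 to 26.6, and the rest of the list is not given singly here. Circumbracteal nectary samples had fewer entries above 0 than most other samples, down to 30965 in pre-secretory replicate 3, and the median over all genes stood at -0.48 before and -0.46 after secretion, which another scaling (median of ratios) moved to -0.23 and -0.27. Members in these comparisons are read against that shift.

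Summed by class, the superoxide dismutases had the highest values in floral tissue and the class III peroxidases in foliar tissue, a ranking that rests on the signal being scaled by length. The dismutases summed to a mean of 17661 in the nectary and 17676 in adjacent tissue of the pre-secretory flower, 22646 and 14409 at secretion, and 16796 and 16857 after it. Class III peroxidases summed to a mean of 28671 in the nectary and 33069 in adjacent tissue of the pre-secretory leaf, against 3763 and 7356 in the pre-secretory flower. The lowest class III sums were those of the post-secretory circumbracteal nectary (2380) and of the tissue adjacent to the post-secretory bracteal nectary (2706). Respiratory burst oxidases were the lowest of the 4 enzyme classes throughout, with mean sums between 175 and 928. Ascorbate peroxidases varied least, with mean sums between 2756 and 4518.

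**Figure D1:**
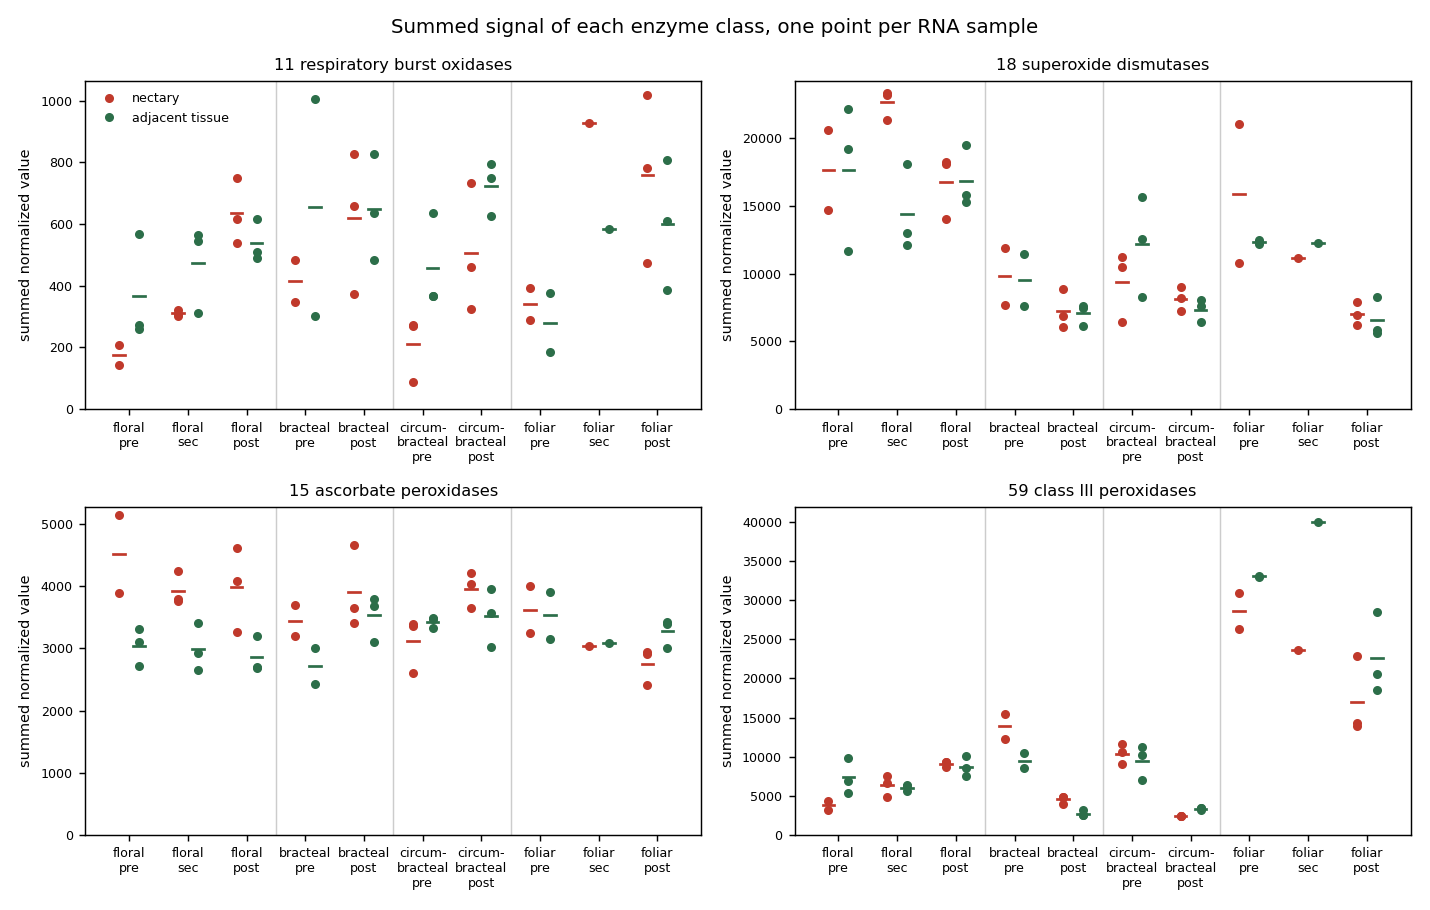
Summed normalized value of the superoxide dismutases, ascorbate peroxidases, respiratory burst oxidases and class III peroxidases (vertical axis, linear from 0) in each nectary type and stage, with 1 point per RNA sample, bars at the mean, nectary left of adjacent tissue. Class III peroxidases were highest in foliar tissue (means 17034 to 40057), and the dismutases reached 22646 in the secretory floral nectary, against 14409 in its adjacent tissue.

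In the 9 comparisons of a nectary with its adjacent tissue, 54 of the 107 members changed at least once (50.5%, where 28.0% of all genes did), 21 being higher and 37 lower at least once (8.07% and 20.8% of all genes), and 4 of them went both ways. In the pre-secretory floral nectary 6 members were higher and 11 lower, 15.9% of the members, where 8.61% of all genes were called (3.53% higher and 5.07% lower). At secretion 9 were higher and 13 lower, 20.6% against 9.41% of all genes (2.60% higher and 6.81% lower). After secretion 10 were higher and 4 lower, 13.1% against 4.08% (1.76% higher and 2.33% lower). In the floral nectary more members were lower than higher before and at secretion and more were higher than lower after it, while the members' median difference was -0.21, -0.20 and 0.00 beside -0.11, -0.25 and -0.08 over all genes. The number of members called was 8 without pre-secretory nectary replicate 1, 11 without pre-secretory nectary replicate 2 or adjacent replicate 1, 13 at secretion without nectary replicate 2, and 9 after secretion without nectary replicate 2 or adjacent replicate 1.

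In each extrafloral comparison 12 or fewer members were called. In the bracteal nectary 1 member was higher before secretion, 0.935% of the members against 0.0802% of all genes (0.0477% higher and 0.0325% lower). After it 5 were higher and 1 lower (5.61%, against 2.65% of all genes, 1.47% higher and 1.19% lower). Circumbracteal nectaries had 1 higher and 10 lower before secretion (10.3% against 8.75%, 0.609% higher and 8.14% lower), a share near the background. After it they had 4 higher and 8 lower (11.2% against 7.65%, 1.15% higher and 6.50% lower). The foliar nectary had 2 higher before secretion (1.87% against 0.783%, 0.638% higher and 0.145% lower), and 2 higher and 2 lower after it (3.74% against 2.25%, 1.36% higher and 0.885% lower). In a fit of only the 2 groups compared, 0 members were called in the bracteal and the circumbracteal nectary before secretion (0% and 0.00274% of all genes), 1 in the foliar nectary before secretion (0.229%) and 3 in the circumbracteal nectary after it (1.08%). With 10 instead of 1 added before taking logs, 3 were called in the pre-secretory bracteal, 7 in the pre-secretory foliar and 8 in the post-secretory foliar nectary (0.349%, 1.94% and 3.70% of all genes), and median-of-ratios scaling gave 7 in the pre-secretory circumbracteal nectary (7.13%). Single samples also moved these numbers. The bracteal call was lost without pre-secretory nectary replicate 3 or adjacent replicate 2, and the post-secretory number was 2 without nectary replicate 2 and 3 without nectary replicate 3 or adjacent replicate 3. The circumbracteal number was 3 without pre-secretory nectary replicate 3 or adjacent replicate 2. After secretion it was 5, 4 and 20 without nectary replicates 1, 2 and 3, and 6 without adjacent replicate 3. The pre-secretory foliar number was 1 without nectary replicate 2 or adjacent replicate 1. Of the 89 calls in the 9 comparisons, 29 held when any 1 sample was left out, and these are given most room below.

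**Figure D2:**
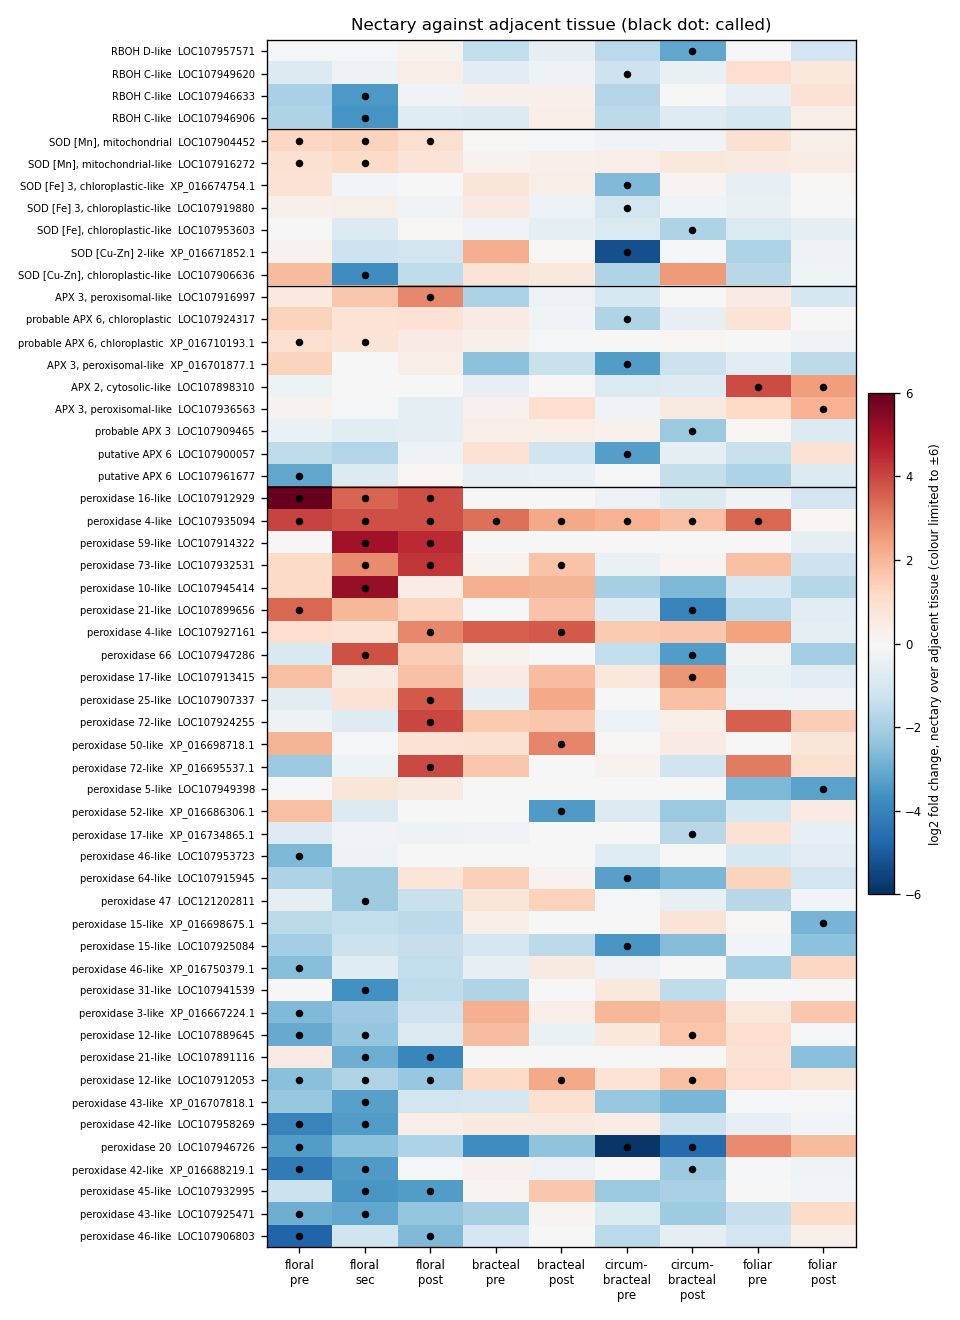
Difference between nectary and adjacent tissue (log2 of value + 1, red higher and blue lower in the nectary) for the 54 members called at least once, in rows by class, over the 9 nectary comparisons in columns, with a dot where the member was called. The 3 floral columns hold most of the dots (17, 22 and 14 members), and the bracteal and foliar pre-secretory columns hold 1 and 2.

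Among the respiratory burst oxidases, no gene was called higher in any nectary than in its adjacent tissue, and 4 of the 11 were called lower at least once (36.4%, against 20.8% of all genes, while 8.07% of all genes were called higher). LOC107949620, annotated as a homolog of RBOHC (the Arabidopsis oxidase known for root hair growth), was the most abundant, with a mean of 331. Its values in the floral nectary were 123 and 135 before secretion, 195, 139 and 260 at secretion, and 573, 437 and 476 after it, against 210, 189 and 309, then 264, 262 and 192, then 340, 424 and 356 in adjacent tissue. Every post-secretory nectary sample lay above every earlier one. The difference between post-secretory and pre-secretory nectaries was 1.93 ± 0.41 (SE; adjusted p = 0.00141, limma), and the call held under each alternative tried. In pre-secretory circumbracteal nectaries it was called lower (-1.26, adjusted p = 0.0235, limma), but without circumbracteal pre-secretory nectary replicate 3 the difference was -0.80 and it was not called, nor was it without adjacent replicate 2 (adjusted p over the alternatives 0.00582 to 0.409).

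A pair of low RBOHC-like genes stood apart at floral secretion. LOC107946633 had values of 5.70, 3.80 and 12.5 in the secretory nectary, against 111, 107 and 45.0 in adjacent tissue. LOC107946906 had 7.60, 1.90 and 13.6 in the nectary, against 125, 119 and 35.4 in adjacent tissue. The groups did not overlap in either gene, and the differences were -3.44 ± 0.93 and -3.52 ± 0.98 (SE; adjusted p = 0.0120 and 0.0151, limma). These near-identical patterns may rest in part on shared reads, since close gene copies were not separated in the table. Each call was lost without nectary replicate 2 (-3.11 and -2.87), without adjacent replicate 1 (-3.22 and -3.21) or without adjacent replicate 2 (-3.24 and -3.25), with adjusted p over the alternatives from 0.00253 to 0.0733 and from 0.00259 to 0.127.

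Over leaf growth 3 of the 11 oxidases rose and none fell in tissue adjacent to the foliar nectary (27.3% of the oxidases, against 4.81% of all genes that rose and 10.9% that fell in that comparison). XP_016731348.1, an RBOHB-like entry, had 11.7, 43.7 and 57.5 in post-secretory adjacent tissue, against 0.935 and 0.920 in the pre-secretory tissue, a difference of 4.06 ± 0.93 (SE; adjusted p = 0.00171, limma). XP_016713705.1, a second RBOHB-like entry, had 15.6, 65.6 and 57.5 after secretion and was listed at 0 in both pre-secretory adjacent samples (adjusted p = 1.81e-05, limma). Both calls held under each alternative. In the post-secretory foliar nectary the values were 2.72, 11.8 and 5.70 for one of these entries and 2.72, 11.8 and 4.75 for the other, so the pair cannot be separated from a single source of reads. The count of 3 oxidases that rose may therefore hold the same signal more than once. LOC107957571, an RBOHD-like gene (RBOHD is the oxidase of the Arabidopsis immune burst), was called lower in the post-secretory circumbracteal nectary, with 1.12, 0 and 4.06 in the nectary and 8.34, 23.0 and 30.0 in adjacent tissue (-3.11, adjusted p = 0.0241, limma). That call was lost in 4 of the 6 fits that left out 1 sample and in a fit of the compared groups alone, over which the difference was -3.71 to -2.54 and the adjusted p 0.00476 to 0.235 under all alternatives.

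Of the 18 superoxide dismutases, 7 were called in at least 1 of the 9 nectary comparisons (38.9%). They were 2 higher (11.1%) and 5 lower (27.8%), to be read beside the shares of all genes given above. In the floral nectary 2 were higher before secretion, 2 were higher and 1 lower at secretion, and 1 was higher after it. The mitochondrial manganese enzyme LOC107904452 was higher at every floral stage. It had values of 4305 and 3767 in the pre-secretory nectary, against 1575, 1914 and 1708 in adjacent tissue. At secretion it had 6177, 6755 and 4550 in the nectary, against 2267, 1939 and 2594, and after secretion 2974, 4783 and 3335, against 1606, 1982 and 2022. The groups did not overlap at any of the stages, and the 2 highest values of the gene over all samples were those of secretory floral nectaries. The differences were 1.22 ± 0.27, 1.35 ± 0.24 and 0.96 ± 0.24 (SE; adjusted p = 0.00199, 1.51e-04 and 0.0115, limma).

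The secretory call of LOC107904452 held without any 1 sample. The pre-secretory call was lost without nectary replicate 1 (1.12), and the post-secretory call without nectary replicate 2 (0.76) or adjacent replicate 1 (0.85), with adjusted p over the alternatives from 4.15e-04 to 0.136 and from 0.00222 to 0.136. In a fit of only the compared groups the adjusted p was 0.136, 0.0545 and 0.0597, just past the threshold at secretion. Outside the floral nectary and its adjacent tissue the gene ranged from 686 to 1937. A second manganese gene, LOC107916272, had 632, 800 and 516 in the secretory floral nectary, against 254, 251 and 361 in adjacent tissue, a difference of 1.16 ± 0.27 (SE; adjusted p = 0.00289, limma) that held under each alternative.

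Several copper-zinc enzymes changed with stage. XP_016673572.1 was the most abundant dismutase, with a mean of 2916. In the circumbracteal nectary it had 849, 702 and 864 after secretion, against 3901, 3019 and 1568 before it. In the adjacent tissue it had 424, 750 and 711 after secretion, against 5906, 2650 and 2062 before it. The stages did not overlap on either side, and the gene fell by 1.72 ± 0.41 in the nectary and by 2.38 on the log2 scale in adjacent tissue (SE of the nectary value; adjusted p = 0.00199 and 1.16e-04, limma), which held under each alternative. In the foliar nectary it had 1698, 1115 and 2371 after secretion, against 9543 and 3994 before it (-1.90, adjusted p = 0.00342), and without pre-secretory nectary replicate 1 the difference of -1.28 was not called (0.00237 to 0.265 over the alternatives, limma).

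The chloroplastic copper-zinc gene LOC107891599 followed the same order. It had 125, 229 and 163 in the post-secretory circumbracteal nectary, against 464, 486 and 409 in the pre-secretory one (-1.43 ± 0.36 SE, adjusted p = 0.00385, limma). In tissue adjacent to the foliar nectary it had 249, 257 and 518 after secretion, against 1045 and 2437 before it (-2.31, adjusted p = 6.87e-05, limma). Both calls held under each alternative. The foliar nectary itself had 226, 238 and 398 after secretion, against 982 and 656 before it. The change in the nectary minus that in adjacent tissue was 0.36 in circumbracteal and 0.78 in foliar tissue, and neither was called. The entry XP_016668867.1, of the same description, also fell in tissue adjacent to the foliar nectary (-2.26, adjusted p = 9.73e-05, limma), and reads of the 2 copies may be shared. Green tissue transcripts (35 chlorophyll a-b binding proteins) stood at 19987 to 74024 in post-secretory and 123410 and 202129 in pre-secretory tissue adjacent to the foliar nectary, and 11 of the 35 fell there, and their part in this result was not tested.

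**Figure D3:**
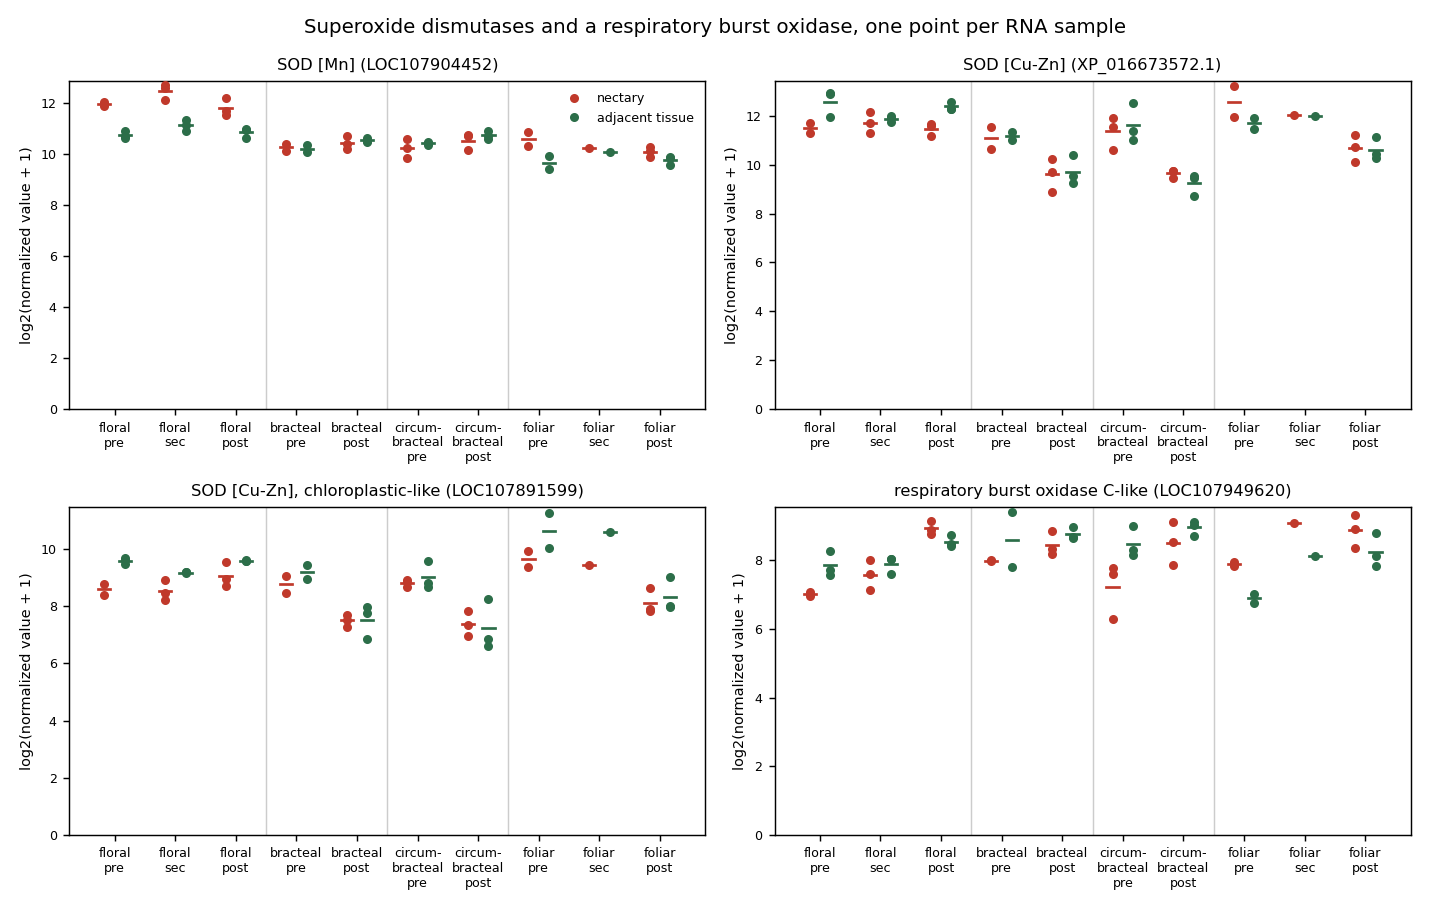
Values (log2 of value + 1) of the manganese dismutase LOC107904452, the copper-zinc dismutases XP_016673572.1 and LOC107891599, and the RBOHC-like oxidase LOC107949620 in every condition, with 1 point per RNA sample, bars at the mean, nectary left of adjacent tissue. The manganese gene stands above adjacent tissue at all 3 floral stages (differences 1.22, 1.35 and 0.96), and both copper-zinc genes are lower after secretion in the circumbracteal nectary (-1.72 and -1.43).

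Another copper-zinc pattern was found in the floral nectary. LOC107906636, also annotated as chloroplastic, had 231 and 130 in the pre-secretory floral nectary, then 7.60, 0 and 0 at secretion and 12.9, 1.93 and 2.01 after it. The difference of the secretory from the pre-secretory nectary was -6.41 ± 1.22 (SE; adjusted p = 6.72e-04, limma), called under each alternative, with its size set in part by the 1 added before taking logs. The later difference of -5.13 (adjusted p = 0.00478) was not called without pre-secretory nectary replicate 1 (-4.72, 3.68e-05 to 0.110 over the alternatives, limma). The copper-zinc entry XP_016671859.1 had 420 and 205 in the pre-secretory nectary, 106, 96.9 and 98.0 in the secretory one, and 81.2, 67.6 and 117 in the post-secretory one. It was called lower after secretion than before it (-1.75, adjusted p = 0.00369, limma), but not without the same pre-secretory nectary replicate 1 (-1.24).

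Iron enzymes and low copper-zinc entries differed in circumbracteal tissue. LOC107953603, an iron dismutase, had 226, 91.3 and 329 in the post-secretory nectary, against 679, 812 and 606 in adjacent tissue, a difference of -1.87 ± 0.42 (SE; adjusted p = 0.00422, limma), well past the all-gene shift of -0.46. The call was lost without nectary replicate 2 (-1.35), and over the alternatives the adjusted p was 6.90e-04 to 0.0824, the highest in the fit of the compared groups alone. The adjacent tissue itself rose with stage, with 679, 812 and 606 after secretion, against 137, 224 and 136 before it (2.10 ± 0.42 SE, adjusted p = 7.72e-04, limma). The copper-zinc entry XP_016671852.1 was listed at 0 in all 3 pre-secretory circumbracteal nectary samples, against 17.7, 72.5 and 40.0 in adjacent tissue (adjusted p = 1.89e-05, limma, and 0.228 in the fit of the compared groups alone), and had 38.2, 27.7 and 50.8 in the post-secretory nectary. It is described as isoform X1 of the enzyme of which XP_016671859.1 is isoform X2, and how reads were divided between them is not known. The iron dismutase 3 genes XP_016674754.1 and LOC107919880 were called lower in the pre-secretory circumbracteal nectary (-2.64 and -1.09, adjusted p = 0.0265 and 0.0445, limma), and without nectary replicate 3, where XP_016674754.1 was listed at 0, its difference was -0.66 (0.00186 to 0.551 over the alternatives). The call of LOC107919880 was lost without any 1 of the 6 samples (-1.23 to -0.98, 0.0115 to 0.451).

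The 2 copper chaperones deliver copper to the copper-zinc enzymes, and 1 of them changed. LOC107930044 had 85.3, 64.7 and 77.2 in the post-secretory circumbracteal nectary, against 198, 185 and 145 in the pre-secretory one. The difference was -1.20 in the nectary and -1.57 in the adjacent tissue (adjusted p = 0.0178 and 0.00445, limma), in the same comparisons in which the abundant copper-zinc dismutase fell. In the nectary it was not called without pre-secretory replicate 1 (-1.11) or post-secretory replicate 2 (-1.09), with adjusted p over the alternatives from 0.00678 to 0.120.

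Of the 15 ascorbate peroxidases, 9 were called in at least 1 of the 9 nectary comparisons (60.0%, against 28.0% of all genes), and 1 was called higher and 1 lower in the floral nectary before secretion, 1 higher at secretion and 1 higher after it. The most abundant members, XP_016714614.1 and XP_016754812.1, averaged 900 and 788 over the 51 samples and were called in none of the 19 comparisons of tissue or stage. XP_016710193.1, annotated as the chloroplastic APX6, had 1124 and 1083 in the pre-secretory floral nectary, against 554, 505 and 660 in adjacent tissue. At secretion it had 1378, 1351 and 945, against 724, 644 and 734. The nectary samples were higher without overlap at both stages (0.95 ± 0.23 and 0.79, adjusted p = 0.00431 and 0.00803, limma). The pre-secretory call was lost without nectary replicate 1 (0.93), and the secretory call without nectary replicate 1 (0.69), nectary replicate 2 (0.70) or adjacent replicate 2 (0.73), with adjusted p over the alternatives from 6.37e-04 to 0.150 and from 0.00143 to 0.139.

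A putative APX6 gene, LOC107961677, went the other way before secretion. It had 4.87 and 28.7 in the pre-secretory floral nectary, 80.8, 31.4 and 98.0 in the secretory one, and 273, 167 and 183 in the post-secretory one. The adjacent samples had 86.5, 95.4 and 183, then 150, 125 and 71.8, then 196, 180 and 177. It was low in the young nectary and level with adjacent tissue after secretion. The nectary rose after secretion relative to the pre-secretory stage (3.95 ± 0.59 SE, adjusted p = 1.58e-05, limma) under each alternative. The pre-secretory difference from adjacent tissue was -3.13 ± 0.59 (SE; adjusted p = 3.65e-04, limma) and rested on nectary replicate 1, without which it was -1.96 and not called (7.55e-05 to 0.129 over the alternatives).

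In extrafloral nectaries the peroxisomal APX3 genes moved. LOC107936563 had 79.8, 230 and 101 in the post-secretory foliar nectary, against 20.4, 46.6 and 24.3 in adjacent tissue (2.07 ± 0.44 SE, adjusted p = 0.00392, limma), which was not called without nectary replicate 2 (1.62, 4.00e-04 to 0.0792 over the alternatives). LOC107908653 had 748, 739 and 786 in the post-secretory circumbracteal nectary, against 401, 395 and 219 in the pre-secretory one (1.21 ± 0.29 SE, adjusted p = 0.00212, limma, and 0.0520 in the fit of the compared groups alone). The APX2-like gene LOC107898310, of which the Arabidopsis counterpart is known for its response to heat and strong light, was above 10 only in the pre-secretory foliar nectary, with 12.9 and 59.9, against 0 and 2.76 in adjacent tissue. Its call there (3.91, adjusted p = 0.00204, limma) was lost without nectary replicate 2 (2.84) or adjacent replicate 1 (2.95), with adjusted p over the alternatives from 1.64e-05 to 0.288.

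Of the 59 class III peroxidases, 34 were called in at least 1 of the 9 nectary comparisons (57.6%, against 28.0% of all genes). In the floral nectary 3 were higher and 10 lower before secretion, 6 higher and 10 lower at secretion, and 8 higher and 4 lower after it. The member most often higher in a nectary was LOC107935094, a PRX4-like gene with a mean of 387, which was called in 8 of the 9 comparisons. Its values in the floral nectary were 628 and 221 before secretion, 590, 1468 and 1053 at secretion, and 851, 1289 and 968 after it. In adjacent tissue they were 17.1, 27.3 and 21.5, then 90.8, 60.8 and 49.8, then 29.2, 77.2 and 144. Every floral nectary sample lay above every adjacent one, with differences of 4.05 ± 0.53, 3.88 ± 0.48 and 3.87 ± 0.48 (SE; adjusted p = 1.40e-06, 4.54e-07 and 8.03e-07, limma) that held under each alternative.

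In bracteal tissue LOC107935094 had 459 and 464 in the pre-secretory nectary, against 20.6 and 98.2 in adjacent tissue. The higher of the adjacent values is that of replicate 3, the sample that carried nectary transcripts. The difference of 3.32 ± 0.58 (SE; adjusted p = 0.00546, limma) was not called without nectary replicate 3 (3.31) or adjacent replicate 2 (2.22), nor in the fit of the compared groups alone, where its adjusted p was 1.000 (6.77e-04 to 1.000 over the alternatives). After secretion it had 245, 312 and 334 in the nectary, against 33.7, 95.8 and 66.4 (2.28 ± 0.48 SE, adjusted p = 0.00328, limma), which held under each alternative. In the pre-secretory foliar nectary it had 295 and 439, against 43.0 and 23.9 (3.45 ± 0.58 SE, adjusted p = 4.62e-04, limma), which also held.

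In circumbracteal tissue LOC107935094 had 256, 359 and 145 in the pre-secretory nectary, against 69.7, 45.3 and 53.4. After secretion it had 260, 202 and 293, against 74.0, 90.9 and 53.6. The nectary samples were higher without overlap at both stages, against the downward shift of these libraries, by 2.08 ± 0.48 and 1.79 ± 0.48 (SE; adjusted p = 0.00450 and 0.0157, limma). The pre-secretory call held without any 1 sample but not in the fit of the compared groups alone (adjusted p = 0.223), and the post-secretory call was lost without nectary replicate 1 (1.76) or adjacent replicate 3 (1.59), with 8.99e-04 to 0.223 and 0.00414 to 0.0844 over the alternatives. In the post-secretory leaf the gene was at 1134, 865 and 1120 in the nectary and 978, 734 and 1191 in adjacent tissue, which overlap. Adjacent foliar tissue rose after secretion by 4.84 ± 0.53 (SE; adjusted p = 2.31e-08, limma) relative to the 43.0 and 23.9 before it, under each alternative.

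A second PRX4-like gene, LOC107927161, was the member whose mean levels over the 20 conditions were most like those of LOC107935094 (Pearson r = 0.735 of mean log2 values, a description over conditions that share samples of one plant line). It had 511, 598 and 570 in the post-secretory floral nectary, against 50.0, 80.2 and 106 in adjacent tissue (2.87 ± 0.66 SE, adjusted p = 0.00557, limma), which was not called without adjacent replicate 1 (2.58, 1.11e-04 to 0.0508 over the alternatives). In the post-secretory bracteal nectary it had 47.3, 101 and 110, against 0, 24.2 and 9.64 (3.66, adjusted p = 6.74e-04, limma, and 0.135 in the fit of the compared groups alone). Both genes therefore stood higher in the floral nectary after secretion and in the bracteal nectary after secretion. In adjacent foliar tissue LOC107927161 had 1084, 909 and 1377 after secretion, against 131 and 122 before it (3.12, adjusted p = 0.00229, limma), under each alternative.

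The largest fitted difference of any member in the 9 nectary comparisons was that of LOC107912929, a PRX16-like gene found mainly in the floral nectary. Its values there were 2021 and 1287 before secretion, 1485, 4049 and 549 at secretion, and 244, 737 and 70.5 after it. The adjacent tissue had 0.950, 0.974 and 0.935 before secretion, then 76.4, 176 and 169, then 16.7, 5.08 and 39.3. In all other samples it was at or below 5.61, and it was listed at 0 in every bracteal sample. Before secretion the nectary was higher by 9.69 ± 0.91 (SE; adjusted p = 1.59e-09, limma) under each alternative. At and after secretion the differences were 3.49 ± 0.81 and 3.85 ± 0.81 (SE; adjusted p = 0.00341 and 0.00245, limma), and each was lost without the nectary replicate 2 of its stage (2.77 and 3.02, with 4.38e-06 to 0.0554 and 2.21e-05 to 0.0526 over the alternatives).

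Other class III genes came up later in the floral nectary. LOC107932531, a PRX73-like gene (PRX73 acts in root hair growth in Arabidopsis), had 18.5 and 7.92 before secretion, 66.5, 50.4 and 150 at secretion, and 183, 318 and 174 after it. In adjacent tissue it had 8.55, 4.87 and 2.81, then 10.8, 12.0 and 8.62, then 8.34, 15.2 and 8.27. The nectary climbed stage by stage while adjacent tissue stayed below 16. The nectary was higher by 2.83 ± 0.48 at secretion and 4.28 ± 0.48 after it, and its post-secretory samples exceeded its pre-secretory ones by 4.04 ± 0.54 (SE; adjusted p = 9.17e-05, 1.63e-07 and 2.00e-06, limma), all under each alternative. Outside the flower it was present on both sides, with 191 and 147 in the pre-secretory bracteal nectary and 127 and 167 in its adjacent tissue. After secretion it was called higher in the bracteal nectary, just under the threshold (means 215 and 69.5, 1.70, adjusted p = 0.0449, limma). In the post-secretory leaf it had 40.8, 91.5 and 39.0 in the nectary, against 155, 157 and 85.7 in adjacent tissue, which overlap.

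LOC107914322, a PRX59-like gene, was listed at 0 in the pre-secretory flower, in the nectary and in adjacent tissue alike. At secretion it had 27.6, 46.6 and 174 in the nectary, against 0, 0 and 5.75 in adjacent tissue. After secretion it had 102, 280 and 118, against 2.09, 5.08 and 15.5. The nectary was higher without overlap at both stages (5.04 ± 0.62 and 4.48 ± 0.62 SE, adjusted p = 4.36e-07 and 6.37e-06, limma) under each alternative. Among extrafloral samples it was above 0 in 1 post-secretory foliar adjacent sample, at 1.95.

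**Figure D4:**
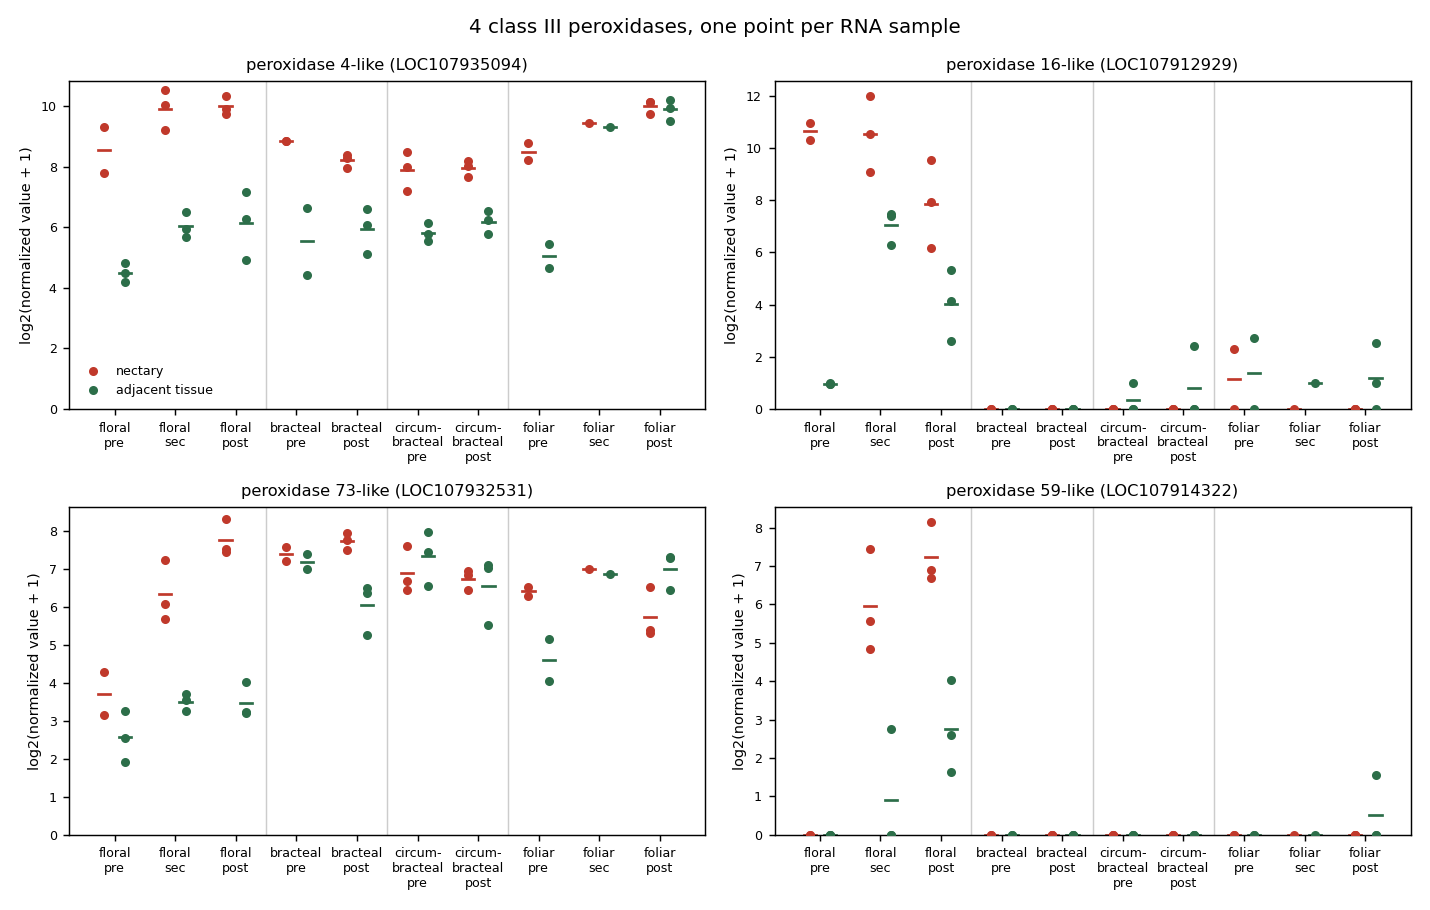
Values (log2 of value + 1) of the class III peroxidases LOC107935094 (PRX4-like), LOC107912929 (PRX16-like), LOC107932531 (PRX73-like) and LOC107914322 (PRX59-like) in every condition, with 1 point per RNA sample, bars at the mean, nectary left of adjacent tissue. The nectary samples of LOC107935094 lie above the adjacent ones in every replicated pair except the post-secretory foliar one, where they overlap, and the secretory foliar pair has 1 sample on each side (688 and 633). LOC107912929 and LOC107914322 are high in floral nectaries and near 0 in extrafloral samples, the first from before secretion on (difference 9.69), and LOC107932531 is low in the flower except in its secretory and post-secretory nectary.

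Peroxidases of the PRX10 group were found at floral secretion, though not only there. LOC107945128 (PRX10) had 0 and 3.96 in the pre-secretory floral nectary, 780, 448 and 81.3 in the secretory one, and 9.90, 43.5 and 19.1 in the post-secretory one. Floral adjacent tissue had 8.55, 0 and 8.42 before secretion and 75.6, 35.9 and 38.3 at secretion. The secretory nectary was higher than the pre-secretory one by 7.11 ± 1.21 (SE; adjusted p = 1.70e-04, limma), under each alternative, with the exact size set in part by the 1 added before taking logs. LOC107945414, a PRX10-like gene, had 33.3, 54.2 and 50.0 in the secretory floral nectary, against 0, 0.920 and 0 in adjacent tissue (5.21 ± 1.02 SE, adjusted p = 5.75e-04, limma), also under each alternative, and is named here after its values were seen. In the post-secretory leaf LOC107945414 had 4.53, 22.7 and 2.85 in the nectary and 13.6, 45.6 and 24.3 in adjacent tissue. In circumbracteal nectaries LOC107945128 was listed at 0 in all 3 pre-secretory samples and had 98.7, 34.7 and 103 after secretion (adjusted p = 5.87e-05, limma). In the post-secretory bracteal nectary it had 541, 376 and 600, against 42.1, 34.1 and 63.2 in adjacent tissue, which did not overlap but did not pass the test.

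The most abundant class III members were lower in the floral nectary until after secretion. XP_016688219.1, a PRX42-like entry with a mean of 3958, had 167 and 175 in the pre-secretory nectary, 20.9, 111 and 1684 in the secretory one, and 2564, 1845 and 2478 in the post-secretory one. In adjacent tissue it had 5094, 2782 and 2165, then 1158, 2400 and 1809, then 2105, 2951 and 2177. The groups did not overlap before secretion and overlapped at and after it, and secretory nectary replicate 3 stood apart from the other secretory nectary samples. The differences before and at secretion were -4.18 ± 0.73 and -3.42 ± 0.66 (SE; adjusted p = 1.35e-04 and 4.30e-04, limma). The first held under each alternative. The second held without any 1 sample but ranged from -5.11 to -1.98, and its adjusted p was 0.140 in the fit of the compared groups alone.

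The post-secretory nectary exceeded the pre-secretory one by 3.72 ± 0.73 (SE; adjusted p = 6.90e-04, limma), under each alternative. LOC107958269, also PRX42-like and with a mean of 3166, had 74.0 and 70.3 in the pre-secretory floral nectary, 11.4, 36.1 and 1207 in the secretory one, and 2617, 1648 and 2753 in the post-secretory one. In adjacent tissue it had 1639, 931 and 1104, then 595, 1042 and 905, then 1544, 2051 and 1622. The differences from adjacent tissue before secretion (-4.03 ± 0.84 SE, adjusted p = 0.00126, limma) and between post-secretory and pre-secretory nectaries (4.96, adjusted p = 1.02e-04, limma) held under each alternative. Over the 20 conditions this pair had the most alike mean levels (Pearson r = 0.972), and as close copies the genes may share reads.

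Green tissue transcripts also were higher after than before secretion in the floral nectary. The 35 chlorophyll a-b binding proteins summed to 1821 to 3961 in the pre-secretory nectary, 4361 to 16280 in the secretory one and 20934 to 49175 in the post-secretory one. In adjacent tissue they summed to 3557 to 20359, 10229 to 17264 and 19455 to 31177. Of the 35, 29 were higher in the post-secretory than in the pre-secretory floral nectary, 3 were lower in the pre-secretory nectary than in adjacent tissue, and their part in the peroxidase result was not tested.

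After secretion the PRX42-like pair was low in circumbracteal nectaries. XP_016688219.1 had 235, 245 and 147 in the post-secretory nectary, against 4478, 5274 and 4168 in the pre-secretory one (-4.50 ± 0.66 SE, adjusted p = 3.67e-06, limma). LOC107958269 had 232, 245 and 118, against 3469, 3140 and 3364 (-4.13, adjusted p = 1.02e-04, limma). Both calls held under each alternative. In the bracteal nectary XP_016688219.1 had 547, 694 and 491 after secretion, against 6885 and 4594 before it (-3.30, adjusted p = 0.00402, limma), which was not called without pre-secretory nectary replicate 2 (-3.00, 0.00129 to 0.0648 over the alternatives). In adjacent tissue XP_016688219.1 was lower after secretion as well. It had 766, 634 and 786 in bracteal adjacent tissue, against 4483 and 4845 before secretion (-2.68, adjusted p = 0.0185, limma), and 1070, 812 and 892 in circumbracteal adjacent tissue, against 5726, 3524 and 4545 (-2.29, adjusted p = 0.0205, limma). The first was not called without pre-secretory adjacent replicate 2 or 3 and the second in 4 of the 6 fits that left out 1 sample (0.00893 to 0.150 and 0.00591 to 0.0789 over the alternatives). The change in the nectary minus that in adjacent tissue was -0.61 in bracteal and -2.20 in circumbracteal tissue, and neither was called (adjusted p = 1.00 and 0.287, limma). Its highest values were those of the leaf, with 14474 and 12570 in the pre-secretory foliar nectary and 15150 and 14675 in adjacent tissue.

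A PRX12-like pair was lower in the floral nectary. LOC107889645 had 38.9 and 30.7 in the pre-secretory nectary, 58.9, 29.5 and 36.5 in the secretory one, and 192, 148 and 173 in the post-secretory one. In adjacent tissue it had 259, 311 and 289, then 169, 248 and 199, then 268, 314 and 343. The nectary was lower without overlap at each stage, and the differences of -3.01 ± 0.57 before and -2.32 ± 0.51 at secretion (SE; adjusted p = 3.90e-04 and 0.00204, limma) held under each alternative. LOC107912053 had 12.7 and 28.7 in the pre-secretory floral nectary, 27.6, 10.5 and 11.5 in the secretory one, and 21.8, 22.2 and 12.1 in the post-secretory one. In adjacent tissue it had 105, 123 and 116, then 41.4, 88.4 and 45.0, then 99.1, 83.3 and 91.0. It was called lower before secretion (-2.52, adjusted p = 0.00557) and after it (-2.27, adjusted p = 0.00897, limma), except without pre-secretory nectary replicate 1 (-1.96) or post-secretory nectary replicate 3 (-2.00), with 0.00195 to 0.203 and 0.00226 to 0.0720 over the alternatives.

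In the bracteal nectary LOC107912053 went the opposite way. It had 83.1, 132 and 90.9 in the post-secretory bracteal nectary, against 33.7, 33.0 and 6.43 in adjacent tissue. The difference of 2.29 (adjusted p = 0.0120, limma) was not called without nectary replicate 2 (2.09) or adjacent replicate 3 (1.56), with 0.00294 to 0.178 over the alternatives. In the post-secretory circumbracteal nectary it had 167, 161 and 51.8, against 41.7, 21.0 and 35.3 (1.80, adjusted p = 0.0363, limma), a call that was lost in 4 of the 6 fits that left out 1 sample (1.51 to 2.35, 0.00590 to 0.182 over the alternatives). The contrast of nectary types for this gene is given further below.

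**Figure D5:**
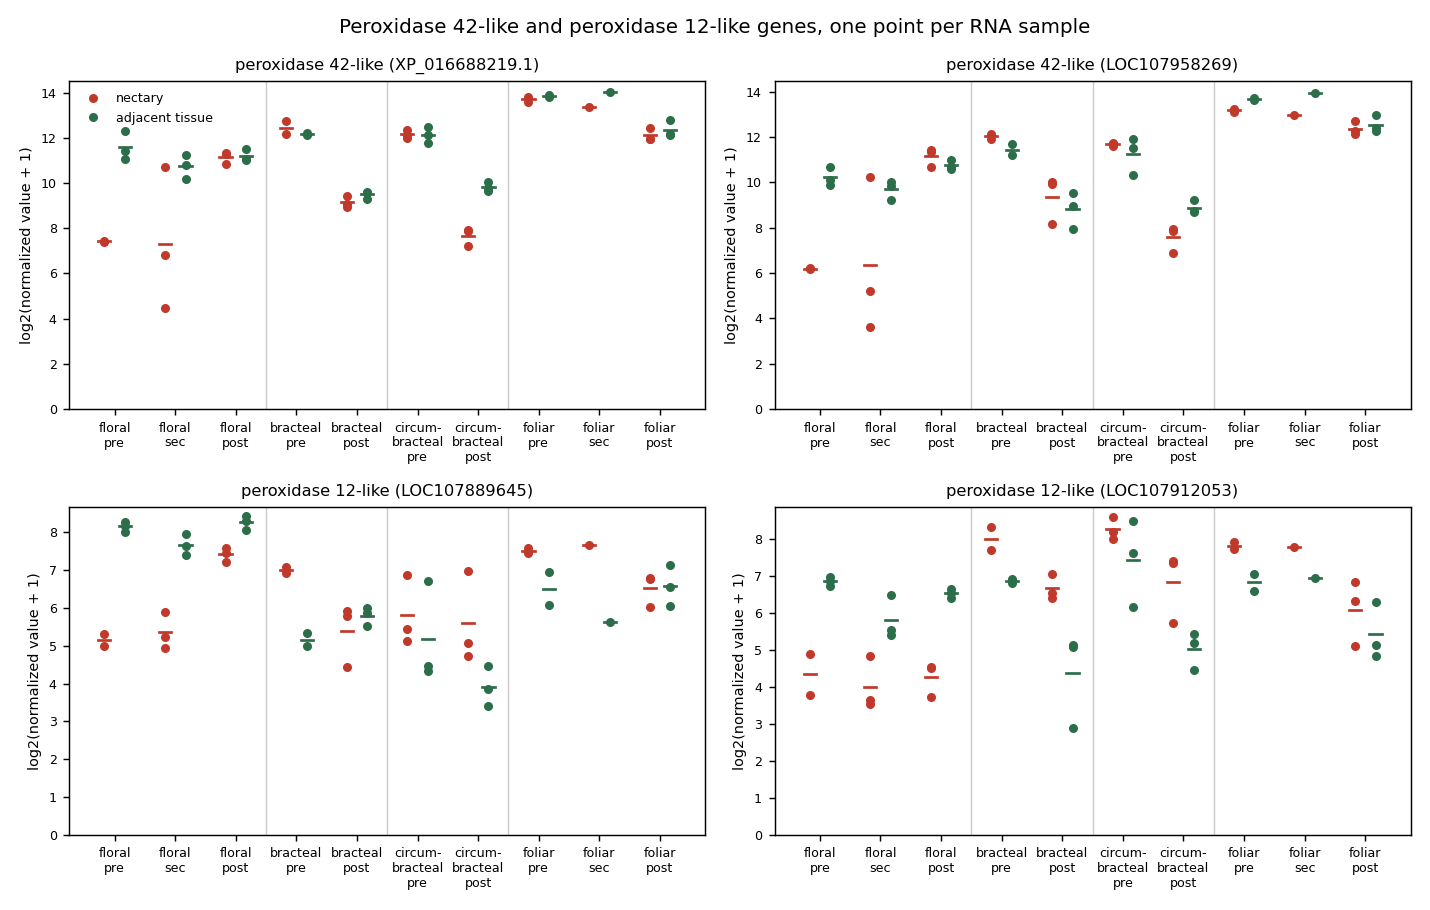
Values (log2 of value + 1) of the PRX42-like XP_016688219.1 and LOC107958269 and the PRX12-like LOC107889645 and LOC107912053 in every condition, with 1 point per RNA sample, bars at the mean, nectary left of adjacent tissue. In the pre-secretory floral nectary all 4 lie below adjacent tissue (differences -4.18, -4.03, -3.01 and -2.52), and the PRX42-like pair drops in circumbracteal nectaries after secretion (-4.50 and -4.13).

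Some members were higher in adjacent tissue than in the nectary in the comparisons given here, but not in all tissues. LOC107906803, a PRX46-like gene, was listed at 0 in both pre-secretory floral nectary samples, against 50.4, 38.9 and 9.35 in adjacent tissue (adjusted p = 1.28e-04, limma), a call that held under each alternative. In the pre-secretory foliar nectary it had 87.4 and 34.8. XP_016698675.1, a PRX15-like entry, had 831 and 456 in the pre-secretory foliar nectary and 601 and 580 in adjacent tissue, which overlap. After secretion it had 369, 508 and 66.5 in the foliar nectary, against 1420, 1345 and 2119 in adjacent tissue (-2.77 ± 0.53 SE, adjusted p = 0.00107, limma), under each alternative. In that comparison 13 of the 22 pigment gland genes, such as delta-cadinene synthase, were lower in the nectary (summed values 86.5 to 314, against 1206 to 3942 in adjacent tissue), and their part in the peroxidase result was not tested. LOC121202811, annotated as PRX47 (with PRX66 one of the Arabidopsis peroxidases of lignifying vessels), had 148, 94.1 and 160 in the secretory floral nectary, against 869, 415 and 506 (-2.11, adjusted p = 0.0217, limma), a call lost without nectary replicate 2 (-1.88) or adjacent replicate 1 (-1.80), with 0.00453 to 0.127 over the alternatives.

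LOC107946726, a PRX20 gene, was missing from most circumbracteal nectary samples and is named after its values were seen. It was listed at 0 in all 3 pre-secretory nectary samples, against 41.2, 81.6 and 53.4 in adjacent tissue (adjusted p = 1.89e-05, limma). After secretion it had 0, 0 and 19.3 in the nectary, against 38.6, 87.9 and 85.7 (-4.62, adjusted p = 4.07e-04, limma). Both calls held without any 1 sample and were lost in the fit of the compared groups alone (adjusted p = 0.145 and 0.116). The pre-secretory nectary samples with 0 are from the libraries with fewer entries above 0, whose part was not tested.

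Over the stages of the floral nectary, more of the called members were higher than lower at the later stage. From the pre-secretory to the secretory nectary 6 were higher and 4 lower (9.35%, against 5.04% of all genes, 2.47% higher and 2.57% lower), and from the secretory to the post-secretory nectary 8 were higher and 3 lower (10.3% against 4.40%, 2.92% higher and 1.48% lower). Between the ends of the series 16 were higher and 5 lower in the post-secretory nectary (19.6% against 7.89%, 4.69% higher and 3.21% lower), 14 of the 16 being class III peroxidases. Floral adjacent tissue had 8 higher and 2 lower after secretion (9.35% against 3.07%, 1.68% higher and 1.39% lower). In a fit of only the compared groups the step from secretory to post-secretory gave 0 called members (0.222% of all genes). Without pre-secretory nectary replicate 1 the numbers were 4 for the first step and 7 between the ends, and without replicate 2 they were 13 between the ends. For the later step they were 6, 5 and 17 without secretory replicates 1, 2 and 3, and 4 and 3 without post-secretory replicates 1 and 3. For adjacent tissue 5 were left without pre-secretory replicate 1 or post-secretory replicate 3. LOC107891116, a PRX21-like gene, led the adjacent tissue, with 156, 96.5 and 446 after secretion, against 0.950, 0.974 and 0 before it (6.92 ± 0.84 SE, adjusted p = 1.72e-06, limma), under each alternative, while the post-secretory nectary had 24.8, 3.86 and 15.1.

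Over the stages of the extrafloral nectaries, more members fell than rose, as was also so among all genes in bracteal and foliar nectaries. In the bracteal nectary 2 were higher and 6 lower after secretion (7.48%, against 4.95% of all genes, 1.27% higher and 3.68% lower). Its adjacent tissue had 3 higher and 8 lower (10.3% against 6.88%, 1.80% higher and 5.08% lower), or 4 higher and 6 lower with median-of-ratios scaling. The circumbracteal nectary had 11 higher and 14 lower (23.4% against 21.2%, 12.0% higher and 9.19% lower), a share near the background, and its adjacent tissue 4 higher and 11 lower (14.0% against 9.22%, 4.01% higher and 5.22% lower). The foliar nectary had 6 higher and 13 lower (17.8% against 13.3%, 3.63% higher and 9.65% lower), with a median of -0.47 beside 0.08 over all genes. Tissue adjacent to the foliar nectary had the most changes of the 19 comparisons, 16 higher and 18 lower (31.8%, where 15.7% of all genes were called), and 25 of the 34 were class III peroxidases. The bracteal nectary number was 3 and 1 without pre-secretory replicates 2 and 3 and 5 without post-secretory replicate 2, and for its adjacent tissue it was 5 and 0 without pre-secretory replicates 2 and 3, the second of which carried nectary transcripts. The foliar nectary number was 5 without pre-secretory replicate 1, and 29 with 10 added before taking logs (17.9% of all genes). In a fit of only the compared groups the numbers were 7 in the circumbracteal nectary, 4 in its adjacent tissue and 2 in bracteal adjacent tissue (5.29%, 3.94% and 1.21% of all genes).

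A member that rose late in reproductive extrafloral nectaries was LOC107913415, a PRX17-like gene (PRX17 is known in Arabidopsis for the formation of lignified tissue). It had 442, 401 and 450 in the post-secretory circumbracteal nectary, against 1.07, 30.8 and 9.33 in the pre-secretory one, a difference of 5.62 ± 0.74 (SE; adjusted p = 6.25e-07, limma) under each alternative. In the bracteal nectary it had 604, 517 and 576, against 33.9 and 19.6 (4.40 ± 0.83 SE, adjusted p = 6.41e-04, limma), which was not called without pre-secretory nectary replicate 3 (4.02, 8.47e-07 to 0.0501 over the alternatives). The adjacent tissues rose as well, to 115, 104 and 24.6 in circumbracteal and 133, 122 and 223 in bracteal tissue after secretion.

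In the leaf, members split between early and late ones. Among the early ones, XP_016749891.1, a PRX31-like entry, had 17.2, 32.6 and 75.1 in the post-secretory nectary, against 532 and 341 in the pre-secretory one, and 24.3, 39.9 and 20.4 in post-secretory adjacent tissue, against 399 and 434. It fell on both sides (-3.57 ± 0.70 SE and -3.89, adjusted p = 4.38e-04 and 9.78e-05, limma), under each alternative. LOC107955572, also PRX31-like, had 7.79, 13.3 and 13.6 in post-secretory adjacent tissue, against 168 and 175 (-3.82, adjusted p = 0.00259, limma), likewise. The PRX47 gene LOC121202811 had 34.1, 68.4 and 10.7 there, against 251 and 424 (-3.42, adjusted p = 4.01e-04, limma), likewise. LOC107906803 was listed at 0 in all 3 post-secretory adjacent samples, against 229 and 68.1 (adjusted p = 1.40e-07, limma). Xylem transcripts (14 genes of secondary wall cellulose synthases and xylem cysteine proteases) summed to 49.7 to 197 in post-secretory and 907 and 1027 in pre-secretory adjacent tissue, and their part in these falls was not tested.

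Among the late ones, XP_016713513.1, a PRX4-like entry, had 7650, 2319 and 2691 in post-secretory adjacent tissue, against 210 and 4.60 in the pre-secretory tissue. The difference was 6.72 ± 1.18 (SE; adjusted p = 6.62e-05, limma) under each alternative. In the foliar nectary it had 7062, 1230 and 1613, against 37.7 and 79.2 (5.44, adjusted p = 0.00134, limma), which was not called without pre-secretory nectary replicate 1 (4.91, 5.22e-07 to 0.0601 over the alternatives). Values were high in old leaves and low in young ones. LOC107899656, a PRX21-like gene, had 22.7, 124 and 60.8 in the post-secretory nectary and was listed at 0 in both pre-secretory samples (adjusted p = 1.31e-04, limma). XP_016734865.1, a PRX17-like entry, rose in adjacent tissue of the leaf (2.51, adjusted p = 6.94e-04, limma) and of the flower (2.28, adjusted p = 0.00314, limma), both under each alternative.

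The secretory foliar stage gives single values. XP_016713513.1 had 295 in the secretory nectary and 652 in adjacent tissue, LOC107935094 had 688 and 633, and XP_016688219.1 had 10699 and 17038. The 2 PRX4-like values lie between those of the earlier and later stages on both sides, and with 1 sample on each side they have no replicate check.

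Whether the stage change differed between a nectary and its adjacent tissue was tested as an interaction. In the flower 5 members had a more positive change in the nectary and 1 a more negative one (5.61% of the members, against 0.421% of all genes, 0.230% more positive and 0.191% more negative). In circumbracteal tissue 1 member differed (0.935% against 0.609%, 0.360% more positive and 0.249% more negative). In bracteal and foliar tissue 0 were called by limma (0.00434% and 0.145% of all genes), with 3 and 10 members at an unadjusted p under 0.05. The floral number was 1 without pre-secretory nectary replicate 1, and 2 or 3 without 8 of the other samples (pre-secretory nectary replicate 2, pre-secretory adjacent replicates 1 and 2, the 3 post-secretory nectary replicates and post-secretory adjacent replicates 1 and 3). The circumbracteal number was 2 or 3 without any of 4 samples, and the foliar one was 1 without post-secretory nectary replicate 2 or adjacent replicate 1. With 10 added before taking logs the circumbracteal number was 0 and the foliar one 5 (0.599% and 0.759% of all genes), the fit of only the compared groups gave 0 in circumbracteal tissue (0.00737%), and median-of-ratios scaling gave 1 in the foliar one (0.150%). The largest floral value was that of XP_016695537.1, a low PRX72-like entry that is named after its values were seen. It had 20.8, 7.73 and 19.1 in the post-secretory floral nectary and was listed at 0 in both pre-secretory nectary samples, while adjacent tissue was listed at 0 in all 3 post-secretory samples and had 3.80, 8.76 and 0.935 before secretion. The interaction of 6.14 (adjusted p = 0.00383, limma), with its size set in part by the 1 added before taking logs, held under each alternative. The floral gene with the negative value was LOC107912929, at -5.84 (adjusted p = 0.0147, limma), with lower nectary values and higher adjacent values after secretion than before it, and it was not called without pre-secretory nectary replicate 1 (-5.52), post-secretory nectary replicate 3 (-4.99) or post-secretory adjacent replicate 3 (-5.19), with 0.00143 to 0.138 over the alternatives.

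Whether the nectary effect differed between the floral nectary and the mean of the extrafloral ones was tested in the same way. Before secretion 3 members were more positive in the flower and 7 more negative (9.35%, against 2.87% of all genes, 1.35% more positive and 1.52% more negative). After secretion 6 were more positive and 1 more negative (6.54% against 2.53%, 1.21% more positive and 1.32% more negative), or 6 and 2 with median-of-ratios scaling. The first number was 5 without pre-secretory floral nectary replicate 1 or 2, and 5 in a fit of only the compared groups (2.07% of all genes). The second was 12 in such a fit (3.41%) and 14 with 10 added before taking logs (3.81%). LOC107912929 was the most positive before secretion (9.87, adjusted p = 1.09e-07, limma). XP_016688219.1 and LOC107889645 were more negative in the flower (-4.24 and -4.17, adjusted p = 0.00192 and 7.99e-05, limma). After secretion LOC107912053 was more negative in the flower (-3.85, adjusted p = 1.85e-04), while LOC107932531, LOC107914322 and LOC107912929 were more positive (4.07, 4.65 and 4.50, adjusted p = 1.14e-05, 6.67e-05 and 0.00333, limma). These differences held under each alternative.

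The differences of nectary types also held 3 low members named after their values were seen. XP_016695537.1 was more negative in the flower before secretion and more positive after it (-3.82 and 4.05, adjusted p = 0.0196 and 0.00437, limma), and the first was not called without 4 of 19 samples or in a fit of only the compared groups (0.00406 to 0.138 over the alternatives). In the other post-secretory nectaries its highest value was 2.85. LOC107943865, a PRX19 gene, had 20.4 and 66.3 in the pre-secretory floral nectary, against 12.4, 5.84 and 3.74 in adjacent tissue, and 0.920 and 0 in the pre-secretory foliar nectary, against 13.1 and 21.2. Its difference before secretion was 4.06 (adjusted p = 0.0171, limma), which was not called without floral nectary replicate 2 (3.24) or floral adjacent replicate 3 (3.73), with 3.29e-04 to 0.228 over the alternatives. LOC107916997, a peroxisomal APX3-like gene, had 6.93, 1.93 and 16.1 in the post-secretory floral nectary and was listed at 0 in all 3 adjacent samples, while the extrafloral nectary samples of that stage were at or below 3.80. Its difference after secretion was 3.33 (adjusted p = 0.0136, limma), which was not called without floral nectary replicate 3 (2.72, 0.00266 to 0.0990 over the alternatives).

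Other redox and wall genes were counted in lists taken by description, with all-gene shares as given above. Of 5 catalases, which break down hydrogen peroxide in peroxisomes, 2 were higher and 1 lower in the floral nectary both before and at secretion, and 3 rose in tissue adjacent to the foliar nectary. Of 12 glutathione peroxidases, 4 were higher and 1 lower in the post-secretory than in the pre-secretory circumbracteal nectary. Of 17 reductases of the ascorbate-glutathione cycle, 7 were higher and 1 lower in that comparison (median 0.88, beside 0.13 over all genes), and 3 were higher in the post-secretory floral nectary than in adjacent tissue. Of 12 peroxiredoxins, 2 were higher in the secretory floral nectary, and 5 fell in the foliar nectary after secretion.

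In tissue adjacent to the foliar nectary, more genes of 3 lists tied to the wall fell than rose with stage. Of 42 tested laccases, which oxidize monolignols without peroxide, 4 were higher and 20 lower in post-secretory than in pre-secretory tissue adjacent to the foliar nectary (median -2.57). Of 46 dirigent proteins, which guide phenolic coupling, 5 were higher and 19 lower there (median -2.10). Of 24 germin-like proteins, some of which have dismutase activity, 2 were higher and 11 lower there (median -2.15), and 1 was higher and 4 lower in the secretory floral nectary than in adjacent tissue. Of 61 lignin monomer enzymes, 7 were higher and 13 lower in the pre-secretory floral nectary, and 6 were higher and 0 lower in the post-secretory bracteal nectary. Of 3 Casparian strip membrane proteins, 1 was higher and 2 lower in the floral nectary both before and at secretion.

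Conditions of highest mean level were spread over the members. Of the 107, 14 were highest in pre-secretory and 13 in post-secretory tissue adjacent to the foliar nectary, 10 in the secretory floral nectary and 9 in the pre-secretory floral nectary. The secretory foliar stage, with 1 sample on each side, had 10 in adjacent tissue and 9 in the nectary. No share over all genes is given for these numbers. The member most like the manganese dismutase LOC107904452 over the 20 conditions was LOC107912929 (Pearson r = 0.882), followed by the APX6 entry XP_016710193.1 (0.876). The OCP3 genes were called in none of the 19 comparisons.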

How the data were processed

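One table of protein entries was used, with 2 run columns for each of 51 RNA samples, and the second sequencing set was not analysed here. The values were made and deposited by the authors as a signal per entry that is rounded and was read here as scaled by length but not by library size. The methods describe BLASTN to the G. hirsutum v1.1 assembly, transfer to Arabidopsis genes and upper-quartile normalization, whereas the deposited entries are NCBI proteins, so the aligner and scaling of this table are not given in the sources used here. Of 37600 entries with small values, 6504 took only rounded multiples of a step above 1, and 98.26% of held-out values lay on it, where 57.9% would by chance, so the values were not handled as counts, and for low members a value near 10 rests on few reads. Over 4383 entries with a step and a known gene length, the step had a Spearman correlation of -0.38 with length. The table holds no read counts, so no counting interval is given.

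Runs were summed, and entries were summed per gene where the RefSeq gene table (Gossypium_hirsutum_v2.1, used for names only) paired them. Of the 109 member entries 47 were paired by accession, 31 were named by accession without version and 31 had no gene name. Entries of the last 2 kinds were not summed and stand as single entries. Isoforms, homeologs and other near-identical copies may therefore share reads and are uncertain. Values were divided by each sample's upper quartile, and genes with at least 10 in at least 2 samples were kept (46113 of 46672). limma 3.58.1 in R 4.3.3 was fitted to log2(value + 1) with 1 coefficient for each of the 20 conditions and a trended prior, with Benjamini-Hochberg adjustment per comparison over all genes tested. Python 3.11.15, pandas 2.3.3 and numpy 2.4.6 were used for the tables. The 25 comparisons were 9 of nectary with adjacent tissue, 6 and 4 over stages, and 6 differences of differences. Alternatives were a pseudocount of 10, median-of-ratios scaling, no filter, a fit of only the compared groups, a replicate block and leaving out each sample. The fit was tested on simulated data.

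The members and lists were chosen with earlier results of these data known. The members named are the 12 most abundant, up to 3 rises and 3 falls per comparison (called, without overlap, the higher group averaging 100 or more), every called oxidase and dismutase, the 6 most often called in nectaries, and the members most like the leading ones. Others are said to be named after their values were seen, which also holds for the APX2-like LOC107898310.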

Additional observations from a re-analysis of the deposited data

Results flagged for a closer look

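These results stood out because the same contrast gave different effects in different tissues or nectary types, by a test of the difference itself (limma, Benjamini-Hochberg over all genes tested). Values are differences of log2 differences, and for genes listed at 0 in a group they depend on the 1 added before taking logs and are no measure of a fold.

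From before to after secretion in the flower, the change in the nectary minus the change in adjacent tissue was 6.14 for XP_016695537.1 (PRX72-like, listed at 0 in the pre-secretory nectary and in post-secretory adjacent tissue, adjusted p = 0.00383), 4.48 for LOC107914322 (PRX59-like, listed at 0 in all pre-secretory floral samples, adjusted p = 0.0129), 4.12 for XP_016688219.1 (PRX42-like, adjusted p = 0.0429), 3.27 for LOC107961677 (putative APX6, adjusted p = 0.0481), 3.14 for LOC107932531 (PRX73-like, adjusted p = 0.0327) and -5.84 for LOC107912929 (PRX16-like, adjusted p = 0.0147). Of these 6 calls, that of XP_016695537.1 held in every fit that left out 1 sample (5.58 to 6.74) and the other 5 did not. The call was lost without 10 of 11 samples for XP_016688219.1 (3.76 to 4.38) and LOC107961677 (2.10 to 4.44), without 8 for LOC107932531 (2.57 to 3.70) and without 3 for LOC107914322 (3.91 to 5.12) and LOC107912929 (-6.67 to -4.99). In circumbracteal tissue the value was 5.19 for the copper-zinc dismutase XP_016671852.1 (listed at 0 in the pre-secretory nectary, adjusted p = 0.0116), and a fit of only the compared groups gave an adjusted p of 0.281 (0.00151 to 0.281 over the alternatives).

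Before secretion the nectary effect in the flower minus its mean over the extrafloral types was 9.87 for LOC107912929 (adjusted p = 1.09e-07), 4.25 for LOC107899656 (PRX21-like, adjusted p = 0.0449) and 4.06 for LOC107943865 (PRX19, adjusted p = 0.0171). It was -4.24 for XP_016688219.1 (adjusted p = 0.00192), -4.20 for LOC107958269 (PRX42-like, adjusted p = 0.00910), -4.17 for LOC107889645 (PRX12-like, adjusted p = 7.99e-05), -3.51 for LOC107912053 (PRX12-like, adjusted p = 0.00213), -3.53 for LOC107906803 (PRX46-like, listed at 0 in the pre-secretory floral nectary, adjusted p = 0.0347), -3.82 for XP_016695537.1 (adjusted p = 0.0196) and -4.24 for XP_016667224.1 (PRX3-like, adjusted p = 0.00676). XP_016667224.1 was listed at 0 in both pre-secretory floral nectary samples and had 257 and 114 in the bracteal, 351, 149 and 73.5 in the circumbracteal and 180 and 139 in the foliar pre-secretory nectary. Floral adjacent tissue of that stage had only 4.75, 7.79 and 3.74, so the floral side of the difference lies near the floor. Bracteal adjacent tissue had 28.5 and 49.6. Under every alternative LOC107912929, XP_016688219.1 and LOC107889645 kept the call. For LOC107958269, LOC107912053, LOC107906803 and XP_016667224.1 no range is given here. In a fit of only the compared groups 5 members were called in this comparison instead of 10. LOC107899656 lost the call without 12 of 19 samples (2.76 to 5.73), XP_016695537.1 without 4 (-4.43 to -3.26) and LOC107943865 without 2 (3.24 to 4.89).

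After secretion that difference was 4.65 for LOC107914322 (adjusted p = 6.67e-05), 4.50 for LOC107912929 (adjusted p = 0.00333), 4.07 for LOC107932531 (adjusted p = 1.14e-05), 4.05 for XP_016695537.1 (adjusted p = 0.00437), 3.33 for LOC107916997 (APX3-like, adjusted p = 0.0136), 2.47 for LOC107935094 (PRX4-like, adjusted p = 0.00618) and -3.85 for LOC107912053 (adjusted p = 1.85e-04). All but LOC107935094 and LOC107916997 kept the call under every alternative tried, and each of these was not called without 1 of 24 samples (1.87 to 3.00 and 2.72 to 3.99).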

How the results depend on the processing

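Of the calls of named genes, none turned direction under any alternative: median-of-ratios scaling kept 123 and lost 7, a pseudocount of 10 kept 121 and lost 9, a fit of only the compared groups (narrow fit) kept 83 and lost 45, no filter and the replicate block kept all 130, and fits without 1 sample kept 743 and lost 208. The cause of these losses was not tested, though fits without 1 sample rest on fewer samples and narrow fits on fewer samples for the spread. Over all members 67 of 253 calls in the 19 comparisons held under every alternative and 92 held without any 1 sample.

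With a pseudocount of 10 the members called numbered 3 instead of 1 in the pre-secretory bracteal nectary, 7 instead of 2 in the pre-secretory and 8 instead of 4 in the post-secretory foliar nectary, 29 instead of 19 over foliar nectary stages, 0 instead of 1 and 5 instead of 0 for the circumbracteal and foliar stage change differences, and 14 instead of 7 for the post-secretory difference of nectary types. Median-of-ratios scaling gave 7 instead of 11 in the pre-secretory circumbracteal nectary and 1 instead of 0 for the foliar stage change difference. In narrow fits the numbers were 0, 0, 3 and 1 in the pre-secretory bracteal, pre-secretory circumbracteal, post-secretory circumbracteal and pre-secretory foliar nectary, 0 for the floral nectary after against at secretion (11 otherwise), 7 for circumbracteal nectary stages (25), 2 and 4 for bracteal and circumbracteal adjacent stages (11 and 15), 0 for the circumbracteal stage change difference, and 5 and 12 for the differences of types before and after secretion (10 and 7).

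Replicate numbers are shared between nectary and adjacent samples, and 19 of 23 same-numbered pairs correlated above 0.1 (-0.113 to 0.666), so not every pair did. Of 18 nectary samples in groups of 3, 16 correlated best with the adjacent sample of their own number, a hint from the data only. With the replicate block (correlation 0.239) the members called were 2 instead of 1 in the pre-secretory bracteal nectary, 21 instead of 12 in the post-secretory circumbracteal nectary, 2 each for the circumbracteal and foliar stage change differences, and 16 instead of 7 for the post-secretory difference of types.

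Without 1 sample at a time, the members called numbered 8 to 15, 13 to 21 and 9 to 12 in the floral nectary by stage, 0 to 1 and 2 to 4 in the bracteal, 3 to 12 and 4 to 20 in the circumbracteal and 1 to 2 and 3 to 6 in the foliar nectary. They were 4 to 12, 3 to 17 and 7 to 21 over floral nectary stages, 1 to 6, 20 to 26 and 5 to 17 over bracteal, circumbracteal and foliar nectary stages, 5 to 9, 0 to 9, 10 to 15 and 24 to 32 over floral, bracteal, circumbracteal and foliar adjacent stages, 1 to 5, 0 to 0, 1 to 3 and 0 to 1 for the stage change differences, and 5 to 11 and 7 to 9 for the differences of types.

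Groups of 2 and 3 pools limit the precision, and low members rest on few reads.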

Other observations

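Some abundant or repeated patterns belong to members that passed few tests. LOC107925084, a PRX15-like gene with a mean of 612, had 208 and 128 in the pre-secretory floral nectary, against 912, 763 and 438 in adjacent tissue. At secretion it had 495, 299 and 339, against 1017, 604 and 1189, and after secretion 507, 956 and 425, against 1196, 1998 and 1576. The nectary samples lay below the adjacent ones without overlap at all 3 floral stages, and none of the 3 differences passed the test. It was called in the pre-secretory circumbracteal nectary (-3.50, adjusted p = 0.0135, limma), with 116, 89.2 and 0, against 175, 538 and 159, and without nectary replicate 3, listed at 0, the difference was -1.27 and not called, nor was it without adjacent replicate 2 (-2.94).

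XP_016698718.1, a PRX50-like entry, had 169 and 110 in the pre-secretory floral nectary, against 29.5, 16.6 and 70.1 in adjacent tissue, which did not pass the test. In the secretory nectary it had 10.5, 4.75 and 19.8, called lower than the pre-secretory nectary (-3.63, adjusted p = 0.00881, limma), except without pre-secretory nectary replicate 1 (-3.32) or secretory nectary replicate 2 (-3.15). The entry was called higher in the post-secretory bracteal nectary than in adjacent tissue (means 48.6 and 11.3, 2.93, adjusted p = 0.0320, limma). LOC107909465, a probable APX3, fell with stage in the circumbracteal nectary, with 6.73, 0 and 17.3 after secretion, against 39.6, 46.2 and 104 before it (-3.49, adjusted p = 1.30e-04, limma, and 0.131 in a fit of only the compared groups). These members were picked after their values were seen.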
